A study of Homo sapiens with 4 samples.

Results

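Aminoacyl-tRNA synthetases join each amino acid to the tRNAs that carry it to the ribosome. The 35 synthetase genes described here were taken by gene symbol from the 58233 genes of the count table. They comprise 19 cytosolic enzymes, whose symbols end in 1 or are FARSA and FARSB, and 16 mitochondrial enzymes, whose symbols end in 2. All 35 were found and all 35 passed the filters on low counts in every comparison. Messenger RNA was sequenced from MIA PaCa-2 and PANC-1 cells, both established human pancreatic cancer lines labelled as wild type (WT), after 24 h with PBS or with cannabichromene (CBC), a non-psychotropic cannabinoid of hemp. CBC was in acetonitrile, and its stated dose was 35 µM in MIA PaCa-2 but 30 µM in PANC-1, so that cell line and dose cannot be told apart. The control libraries are labelled PBS, while the methods speak of a vehicle control. There was 1 library per condition and 4 libraries in all, with 21742775 to 27903667 counts each.

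Every synthetase mRNA is made in the nucleus, and the mitochondrial enzymes are imported to charge the tRNAs that the mitochondrial genome encodes. Most amino acids have a separate gene for each compartment, but GARS1 and KARS1 each give rise to a cytosolic and a mitochondrial glycyl or lysyl enzyme, and were counted here as cytosolic by their symbols. When amino acids run short or the endoplasmic reticulum is stressed, the kinases that phosphorylate eIF2 alpha favour translation of the transcription factor ATF4, and several cytosolic synthetase genes are known ATF4 targets. ATF4 binds with C/EBP partners to the C/EBP-ATF response element (CARE).

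The promoters of the cytosolic genes were read for this element because it is the best known site through which ATF4 acts on its targets. RefSeq promoter windows on GRCh38.p14, from 250 bases before to 50 bases after the start, were given for 30 of the 35 members. LARS1, VARS1, YARS1, AARS2 and VARS2 had none. The letters TGATGNAA, read on both strands, stood in 7 of 16 cytosolic windows (AARS1, CARS1, GARS1, IARS1, MARS1, NARS1 and TARS1) and in 1 of 14 mitochondrial windows (YARS2). Of all 35116 windows, 3.62% held them. Each match is printed with 11 bases on either side, 5′ to 3′ on the strand of the gene, and capitals mark the match. A capital run that ends in ATCA is the element read on the opposite strand.
GARS1, chr7:30594834-30594863, + strand: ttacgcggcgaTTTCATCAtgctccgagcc
CARS1, chr11:3057407-3057436, − strand: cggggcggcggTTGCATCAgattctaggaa
AARS1, chr16:70289675-70289704, − strand: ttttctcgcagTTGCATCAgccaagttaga
MARS1, chr12:57488053-57488082, + strand: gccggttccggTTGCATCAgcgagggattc
NARS1, chr18:57621804-57621833, − strand: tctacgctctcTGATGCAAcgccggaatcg
IARS1, chr9:92293692-92293721, − strand: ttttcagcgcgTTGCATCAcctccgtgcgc
TARS1, chr5:33440956-33440985, + strand: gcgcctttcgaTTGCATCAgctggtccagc
YARS2, chr12:32756076-32756105, − strand: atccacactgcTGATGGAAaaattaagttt
The 8 letters TTGCATCA, or their reverse complement, were shared by 6 of the 7 cytosolic windows, and GARS1 held TTTCATCA. In 6 of the 7 the match lay within 33 bases of the RefSeq start, the exception being AARS1, where it began 187 bases before it.

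The libraries as a whole are described in brief. KRT8, KRT18 and KRT19, keratins of simple epithelia, and VIM, the mesenchymal filament vimentin, had from 3976 to 119039 counts in every library, and the keratin KRT7 had 2 to 58. KRT8, KRT18 and KRT19 counts were lower with CBC in both lines. KRT7 did not follow, with 2 counts with PBS and 52 with CBC in MIA PaCa-2 cells, and 49 and 58 in PANC-1 cells. CDH1, an epithelial adhesion gene, had 32 and 131 counts in PANC-1 cells. Neither KRT7 nor CDH1 was called across both lines. The log2 fold change across both lines was −0.82 for KRT8, −0.47 for KRT18 and −0.61 for KRT19, lower at an unadjusted p under 0.05 but not called by edgeR (adjusted p 0.0623 to 0.171), while DESeq2 called KRT8 and KRT19 lower. The epithelial adhesion genes EPCAM and CDH1 had at most 1 count in MIA PaCa-2 cells, so that keratins alone marked that line as epithelial. PTPRC and PECAM1, which mark leukocytes and endothelium, were at 0 in all 4 libraries, and the macrophage gene CD68 had 1 to 22 counts. The fibroblast collagen gene COL1A1 had 11 and 13 counts in MIA PaCa-2 cells and 3037 (PBS) and 1268 (CBC) in PANC-1 cells, and limma-voom, but not edgeR or DESeq2, called it lower (adjusted p = 0.0497). The part of these markers in the results was not tested. A value in these bulk libraries is a share of all counts, so less RNA per cell and fewer cells with the RNA cannot be told apart.

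With PBS, cytosolic synthetase mRNA was the more abundant kind in both lines. Levels of different genes were compared per length, as counts over the annotated exon length, scaled to the same total over all genes in each library (TPM-like). On this scale the median cytosolic gene stood at 108 in MIA PaCa-2 and 115 in PANC-1 PBS cells, and the median mitochondrial gene at 22.2 and 23.6. With the canonical transcript as the length, an alternative added after the data were seen, these medians were 174 and 179 for the cytosolic and 25.6 and 28.5 for the mitochondrial genes. WARS1 for tryptophan was the highest cytosolic gene in MIA PaCa-2 PBS cells (286, and 414 with canonical lengths), and IARS2, the isoleucyl enzyme, the highest mitochondrial gene of both PBS libraries (218 and 192, or 153 and 135). Other ranks turned with the length. In PANC-1 PBS cells EPRS1, the fused glutamyl-prolyl enzyme, was highest by annotated exons (300), but GARS1 for glycine by canonical transcripts (423). The lowest mitochondrial gene was NARS2 for asparagine by annotated exons (6.12 and 6.62), but SARS2 for serine in MIA PaCa-2 (6.45) and PARS2 for proline in PANC-1 PBS cells (5.05) by canonical transcripts. A few members differed more between the lines than any of them did with CBC. WARS1 was higher in MIA PaCa-2 than in PANC-1 PBS cells by 2.32 on the log2 scale of CPM, the counts of a gene relative to the TMM-scaled size of its library. SARS2, the mitochondrial seryl enzyme, was lower in MIA PaCa-2 PBS cells (log2 ratio −2.20), where it had only 122 counts. CARS1 for cysteine was also lower there (−1.82), while the mitochondrial cysteinyl gene CARS2 was higher (1.72). Each of these values compares single libraries, and the differences between the lines were not tested.

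CBC treatment was followed by higher mRNA of a subset of the synthetases counted as cytosolic. None of the 16 genes with symbols ending in 2 was called higher, which is near the 2.26% called higher over all genes tested. Across both lines, with the cell line as a block, edgeR's quasi-likelihood test called GARS1, CARS1, WARS1, AARS1 and SARS1 higher, at log2 fold changes of 0.93 to 1.42. That is 5 of 19 cytosolic members, beside 2.26% of the 16381 genes tested that were called higher. No cytosolic member was called lower, beside 2.45% of all genes, although 1 (FARSB) was lower at an unadjusted p under 0.05 in edgeR. At that level 9 of 19 were higher, against 10.6% of all genes higher and 10.4% lower. The median log2 fold change of the cytosolic members was 0.33, against 0.02 over all genes tested. The 2 lines are the only replicates of the treatment, with 1 residual degree of freedom before edgeR shared the spread across genes.

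GARS1 (ENSG00000106105, chr7:30580533-30634033) had the largest log2 fold change across both lines among the 35 members. This gene makes the glycyl-tRNA synthetase of both compartments. In MIA PaCa-2 cells its CPM was 339 with PBS and 999.5 with CBC, and in PANC-1 cells 453 and 1088. Both CBC libraries lay above both PBS libraries. The log2 fold change was 1.42 ± 0.18 (SE), with an adjusted p of 0.0118 in edgeR.

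CARS1 (ENSG00000110619, chr11:3000922-3057613), the cytosolic cysteinyl enzyme, had a CPM of 69.1 with PBS and 169 with CBC in MIA PaCa-2 cells. The PANC-1 libraries had 245 and 496. The CBC library was the higher one in each line, but the MIA PaCa-2 CBC library stayed below the PANC-1 PBS library, so PBS and CBC overlap unless the lines are kept apart. The log2 fold change across both lines was 1.16 ± 0.19 (SE; adjusted p = 0.0221, edgeR).

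WARS1 (ENSG00000140105, chr14:100333790-100376805), the tryptophanyl enzyme, is also known as a gene that interferon gamma raises. With PBS and CBC its CPM was 482 and 977 in MIA PaCa-2 cells, and 96.6 and 220 in PANC-1 cells. Here too the groups overlap without the cell line, since the MIA PaCa-2 PBS library lay above the PANC-1 CBC library. The log2 fold change was 1.11 ± 0.18 (SE; adjusted p = 0.0188, edgeR). Of its annotated exon bases, 10.6% overlap genes on the other strand, of which WDR25 had 165 to 488 counts and did not approach the 2197 to 24164 counts of WARS1.

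AARS1 (ENSG00000090861, chr16:70251983-70289707) encodes the alanyl enzyme and SARS1 (ENSG00000031698, chr1:109213918-109238182) the seryl enzyme of the cytosol. AARS1 had a CPM of 278 with PBS and 641 with CBC in MIA PaCa-2 cells, and of 230 and 421 in PANC-1 cells. SARS1 had 152 and 295 in MIA PaCa-2 cells and 159 and 297 in PANC-1 cells, the most similar pair of responses among the called genes. For both genes the 2 CBC libraries lay above the 2 PBS libraries. The log2 fold change was 1.04 ± 0.19 for AARS1 and 0.93 ± 0.19 for SARS1 (SE), with adjusted p of 0.0277 and 0.0356 in edgeR.

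**Figure D1:**
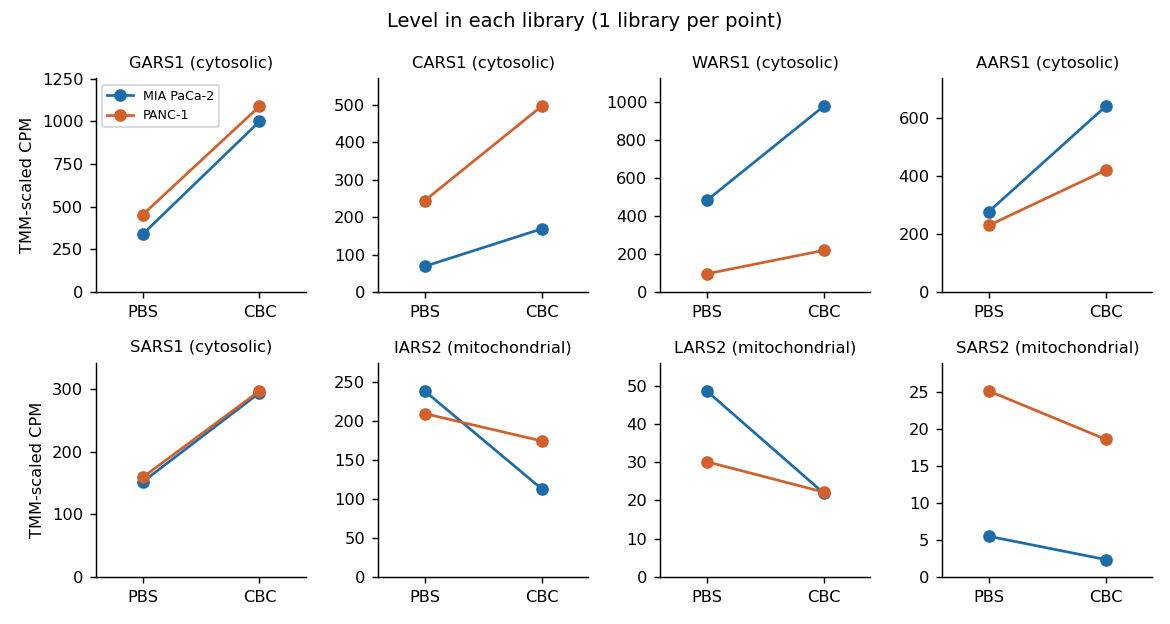
TMM-scaled CPM (vertical axes, each from 0 with its own range) with PBS and CBC in MIA PaCa-2 (blue) and PANC-1 (orange) cells, 1 library per point and no error bar, for the 5 called cytosolic genes and for IARS2, LARS2 and SARS2. All 5 cytosolic genes were higher with CBC in each line, GARS1 going from 339 to 999.5 and from 453 to 1088, while LARS2 ended at 21.9 and 22.2 from different starting levels.

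Of the other 14 cytosolic members, none was called, and their adjusted p in edgeR ran from 0.099 to 0.998. MARS1, the methionyl enzyme, came nearest. Its CPM was 166 with PBS and 276 with CBC in MIA PaCa-2 cells, and 364 and 528 in PANC-1 cells (log2 fold change 0.64 ± 0.18 SE, adjusted p = 0.099). MARS1 shares 12.4% of its exon bases with genes on the opposite strand, among them DDIT3, which had 192 counts with PBS and 4615 with CBC in MIA PaCa-2 cells, and 532 and 5353 in PANC-1 cells. The kit keeps strand, but whether the counting used it is not stated, and the part of DDIT3 reads in the MARS1 counts was not tested. NARS1 for asparagine had a CPM of 288 and 380 in MIA PaCa-2 and of 231 and 380 in PANC-1 cells, with a log2 fold change of 0.56 ± 0.19 (SE; adjusted p = 0.138, edgeR). EPRS1 had 268 and 410, and 424 and 563, in the same order (0.52 ± 0.18 SE; adjusted p = 0.152, edgeR).

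A further 4 cytosolic members lay above 0 in both lines. YARS1, for tyrosine, stood at 0.52 (log2 fold change) in MIA PaCa-2 and 0.43 in PANC-1 cells. IARS1 for isoleucine had 0.08 and 0.56, and LARS1 for leucine 0.14 and 0.51, so these branched-chain enzymes were nearly level in MIA PaCa-2 cells. TARS1, the threonyl enzyme, had 0.28 and 0.21. QARS1 for glutamine (−0.64 and −0.23), FARSB, the beta subunit of the phenylalanyl enzyme (−0.59 and −0.45), and HARS1 for histidine (−0.09 and −0.44) lay below 0 in both lines. The remaining 4, FARSA (the alpha subunit), KARS1, RARS1 for arginine and VARS1 for valine, had opposite signs in the lines.

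**Figure D2:**
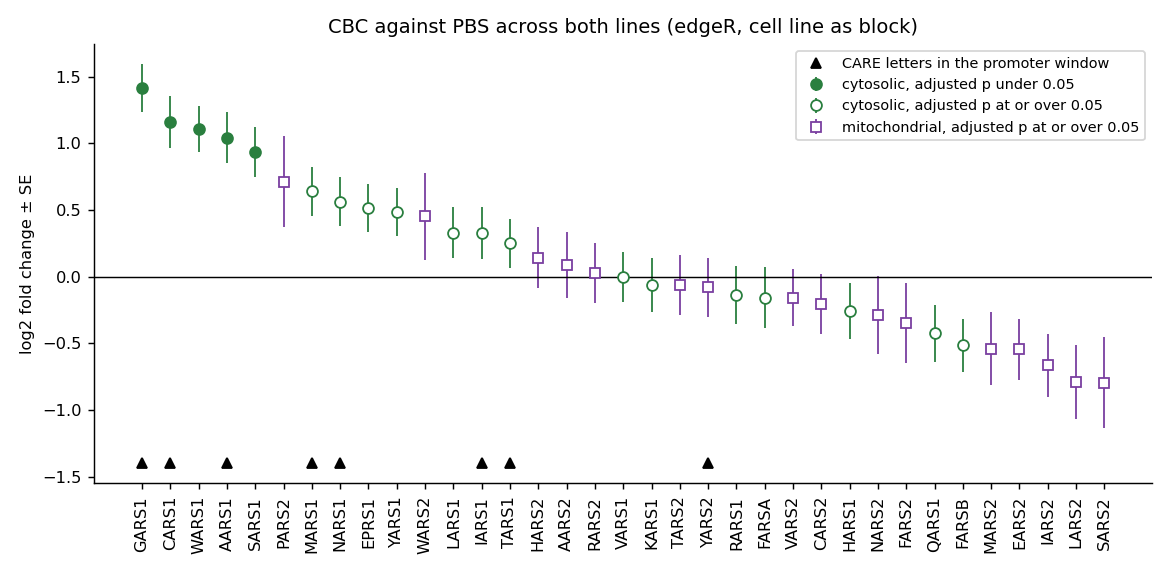
Log2 fold change of CBC over PBS across both lines (points, edgeR with the cell line as a block, 2 lines) with its SE (bars) for all 35 members in order of size. Filled points mark the 5 cytosolic genes with an adjusted p under 0.05, and triangles the 8 members whose promoter window held TGATGNAA, while LARS1, VARS1, YARS1, AARS2 and VARS2 had no window.

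None of the 16 mitochondrial members was called across both lines by edgeR, limma-voom or DESeq2. Over all genes tested edgeR called 2.26% higher and 2.45% lower, so 0 of 16 is near those shares and does not set the mitochondrial members apart. The adjusted p of these members in edgeR ran from 0.152 to 0.963, and their median log2 fold change was −0.18. At an unadjusted p under 0.05 in edgeR, 0 were higher and 4 of 16 were lower (IARS2, LARS2, EARS2 and SARS2), beside 10.4% of all genes tested that were lower at that level. The SE of the mitochondrial members was 0.21 to 0.34, against 0.18 to 0.23 for the cytosolic ones.

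Within each line 1 library stood for each condition, so no test was made, and a gene was counted as past the threshold when its log2 fold change lay beyond 1 or −1. The 95% intervals given for single lines cover counting error only. In MIA PaCa-2 cells 4 of 19 cytosolic members were higher past 1 (GARS1, CARS1, AARS1 and WARS1), beside 11.5% of the 14001 genes compared, and none was lower, beside 8.97%. In PANC-1 cells 3 were higher past 1 (GARS1, WARS1 and CARS1), beside 7.71% of 14091 genes, and none was lower, beside 7.03%. Those 3 genes were past 1 in both lines. The counting intervals of WARS1 in MIA PaCa-2 (0.985 to 1.051) and of CARS1 in PANC-1 cells (0.976 to 1.066) held 1, however. Of the 3, GARS1 alone had intervals above 1 in both lines (1.521 to 1.596 and 1.230 to 1.295). The fold of GARS1 was 2.95 in MIA PaCa-2 and 2.40 in PANC-1 cells, that of CARS1 2.45 and 2.03, and that of WARS1 2.02 and 2.27. With the libraries of the line scaled alone, CARS1 in PANC-1 cells was at 0.99, just short of the threshold.

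The mitochondrial members were counted in the same way, and a difference of their counts between the lines was not tested. In MIA PaCa-2 cells 3 of 16 were lower past 1, beside 8.97% of all genes compared, and 12 of 16 lay below 0, with a median log2 fold change of −0.32 against −0.01 over all genes. In PANC-1 cells none was past 1 in either direction, beside 7.71% of all genes compared that were higher and 7.03% lower. With 16 members, none is near those shares. In that line 10 of 16 lay below 0 and the median was −0.06 against 0.02. The sign of that PANC-1 median turned with the scaling, being 0.01 with library totals in place of TMM, so the mitochondrial list had no stable direction in PANC-1 cells.

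IARS2 (ENSG00000067704, chr1:220094132-220148041) had a CPM of 239 with PBS and 113 with CBC in MIA PaCa-2 cells, which is a log2 fold change of −1.08 (interval −1.14 to −1.01). In PANC-1 cells it had 210 and 175, or −0.26 in log2 (−0.32 to −0.21). The MIA PaCa-2 CBC library was the lowest of the 4. Across both lines the log2 fold change was −0.66 ± 0.24 (SE), which did not pass in edgeR with the filter on low counts (adjusted p = 0.162) and passed without it (adjusted p = 0.0384).

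LARS2 (ENSG00000011376, chr3:45388561-45554726), the mitochondrial leucyl enzyme, had a CPM of 48.6 and 21.9 in MIA PaCa-2 cells and of 30.1 and 22.2 in PANC-1 cells. Both lines thus reached about the same level with CBC, from a higher PBS level in MIA PaCa-2 cells. The log2 fold changes were −1.15, with an interval from −1.30 to −0.999 that reached the threshold of −1, and −0.44 (−0.60 to −0.28), and the value across both lines was −0.79 ± 0.27 (SE; adjusted p = 0.152, edgeR).

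SARS2 (ENSG00000104835, chr19:38915266-38930763) had 122 counts with PBS and 58 with CBC in MIA PaCa-2 cells, the fewest reads of any member there, and 571 and 508 counts in PANC-1 cells. Its log2 fold change in MIA PaCa-2 cells, −1.20, had the widest interval of all members in that line, −1.70 to −0.76, and in PANC-1 cells it was −0.43 (−0.61 to −0.26). Of its exon bases, 48.2% lie within another gene of the same strand, to which 1 to 25 counts were assigned. The level of SARS2 is uncertain for that reason. With a pseudocount of 1 on the deposited CPM its MIA PaCa-2 value was −0.95, no longer past the threshold.

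The other mitochondrial members stayed within 1 of 0 on the log2 scale in both lines. EARS2 for glutamate (−0.69 in MIA PaCa-2 and −0.41 in PANC-1 cells), MARS2 for methionine (−0.69 and −0.40) and VARS2 for valine (−0.20 and −0.12) lay below 0 in both. FARS2 for phenylalanine (−0.48 and −0.22), CARS2 for cysteine (−0.41 and −0.01) and TARS2 for threonine (−0.13 and −0.01) also had negative values, but their PANC-1 intervals held 0. NARS2 (−0.70 and 0.11) and YARS2 for tyrosine (−0.24 and 0.07) lay below 0 in MIA PaCa-2 cells alone, and their PANC-1 intervals also held 0. AARS2 for alanine had 0.28 and −0.11, RARS2 for arginine −0.01 and 0.05, and HARS2 for histidine 0.10 and 0.17. The PANC-1 interval of AARS2, the MIA PaCa-2 interval of HARS2 and both intervals of RARS2 held 0. VARS2 shares 63.0% of its exon bases with another locus of the same strand that was not counted.

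PARS2, the prolyl enzyme, and WARS2, the tryptophanyl enzyme, were the mitochondrial members whose intervals lay above 0 in both lines. PARS2 had a CPM of 10.4 with PBS and 14.0 with CBC in MIA PaCa-2 cells, and of 5.2 and 10.4 in PANC-1 cells. Its PANC-1 log2 fold change of 0.98 (0.68 to 1.32) lay just under the threshold, and its value across both lines was 0.71 ± 0.34 (SE; adjusted p = 0.283, edgeR). WARS2 had log2 fold changes of 0.50 (0.27 to 0.75) and 0.38 (0.09 to 0.68), and its adjusted p across both lines was 0.472.

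**Figure D3:**
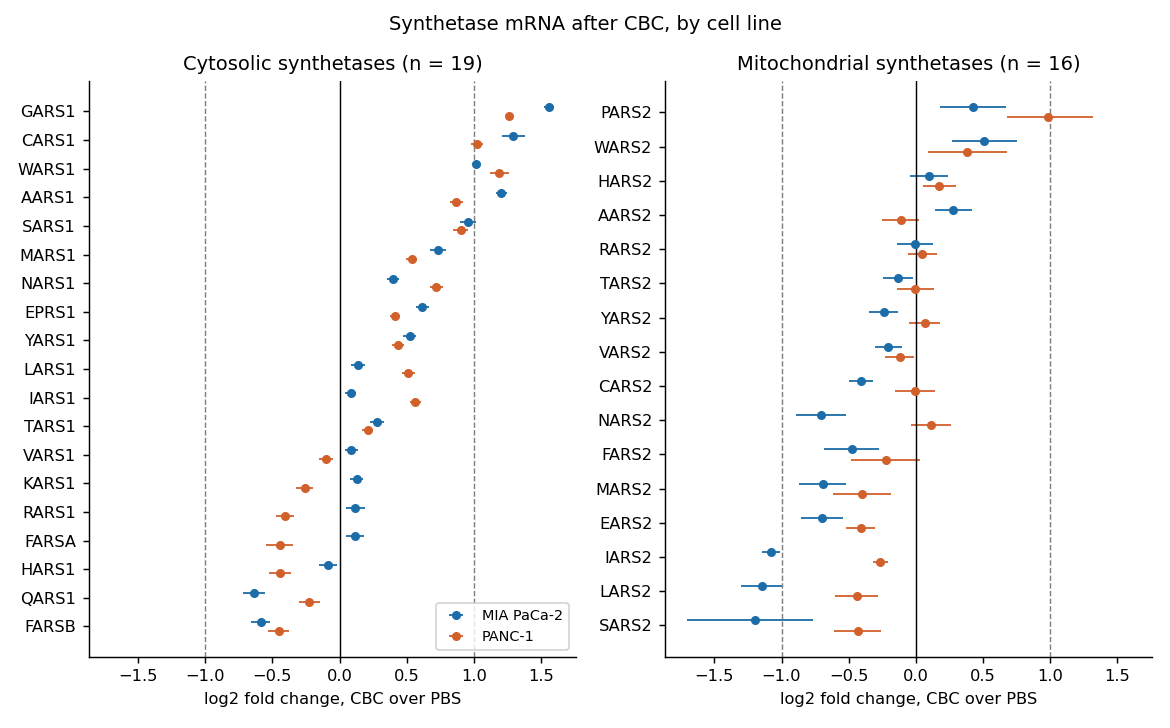
Log2 fold change of CBC over PBS (horizontal axis) in MIA PaCa-2 (blue) and PANC-1 (orange) cells, 1 library per condition, for the 19 cytosolic (left) and 16 mitochondrial (right) members, with 95% intervals that cover counting error only and dashed lines at −1 and 1. The points of GARS1, CARS1 and WARS1 lie past 1 in both lines, and those of IARS2, LARS2 and SARS2 lie past −1 in MIA PaCa-2 cells alone.

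The log2 fold changes, read with their signs, differed between the lines. The value was higher in MIA PaCa-2 than in PANC-1 cells for 13 of 19 cytosolic members, with a median difference of 0.19. It was higher there for only 2 of 16 mitochondrial members, with a median difference of −0.29, so most mitochondrial values lay lower in MIA PaCa-2 cells. The median of the cytosolic list itself was nonetheless lower in MIA PaCa-2 (0.28) than in PANC-1 cells (0.43). The mitochondrial differences that stood out were those of NARS2 (−0.82), IARS2 (−0.81), SARS2 (−0.77) and LARS2 (−0.71). Among cytosolic members FARSA (0.56), RARS1 (0.52) and IARS1 (−0.48) differed most. With 1 library per line and treatment none of these differences could be tested.

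The summed CPM of the cytosolic members was 4455 with PBS and 6727 with CBC in MIA PaCa-2 cells, a ratio of 1.51. For PANC-1 cells it was 4414 and 6424, a ratio of 1.46. Without the 5 called genes the ratios were 1.16 and 1.21. Those genes were picked as higher in these same libraries, so lower ratios without them follow from that choice. The sum of the mitochondrial members was 832 and 603 in MIA PaCa-2 cells (ratio 0.724), against 707 and 647 in PANC-1 cells (ratio 0.915). IARS2 weighed most in these sums, and without it the ratios were 0.825 and 0.950. On the TPM-like scale the PANC-1 mitochondrial ratio was 1.05, the other side of 1, while the other 3 ratios kept their side.

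The balance of the compartments does not depend on the scaling of a library, but it does on the gene lengths. It also rests on counting GARS1 and KARS1, which serve both compartments, as cytosolic. Per length, cytosolic mRNA was 4.03 times the mitochondrial in MIA PaCa-2 PBS cells and 7.69 times in MIA PaCa-2 CBC cells, and 4.49 and 6.40 times in PANC-1 cells. With canonical lengths these were 5.34, 11, 6.39 and 9.96, higher with CBC in both lines as before. By annotated exons the called genes made up 23.9% of the cytosolic level with PBS and 36.9% with CBC in MIA PaCa-2 cells, and 19.3% and 29.96% in PANC-1 cells. By canonical transcripts the shares were 32.3% and 48.8%, and 30.4% and 44.3%. The called genes were picked as higher with CBC in these same libraries, so a larger share with CBC follows from that choice.

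The enzymes were next set beside their counterparts for the same amino acid, in 17 pairs. FARSA and FARSB are both paired with FARS2, and EPRS1 with both EARS2 and PARS2, so the pairs are not independent. Read with its sign, the log2 fold change was higher for the cytosolic enzyme in 15 of 17 pairs in MIA PaCa-2 cells, in 12 of 17 in PANC-1 cells, and in 12 in both. The median differences were 0.76 and 0.61. SARS1 and SARS2 stood farthest apart, by 2.15 in MIA PaCa-2 and 1.33 in PANC-1 cells, and CARS1 and CARS2 by 1.70 and 1.03. SARS2 had only 122 and 58 counts in MIA PaCa-2 cells, and 48.2% of its exon bases overlap another gene of the same strand. In PANC-1 cells PARS2 exceeded EPRS1, and HARS2, RARS2 and FARS2 exceeded their cytosolic partners. HARS1 and HARS2 lie head to head, on opposite strands of chromosome 5, with spans that share 108 bases, and they differed by −0.19 in MIA PaCa-2 and −0.62 in PANC-1 cells.

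**Figure D4:**
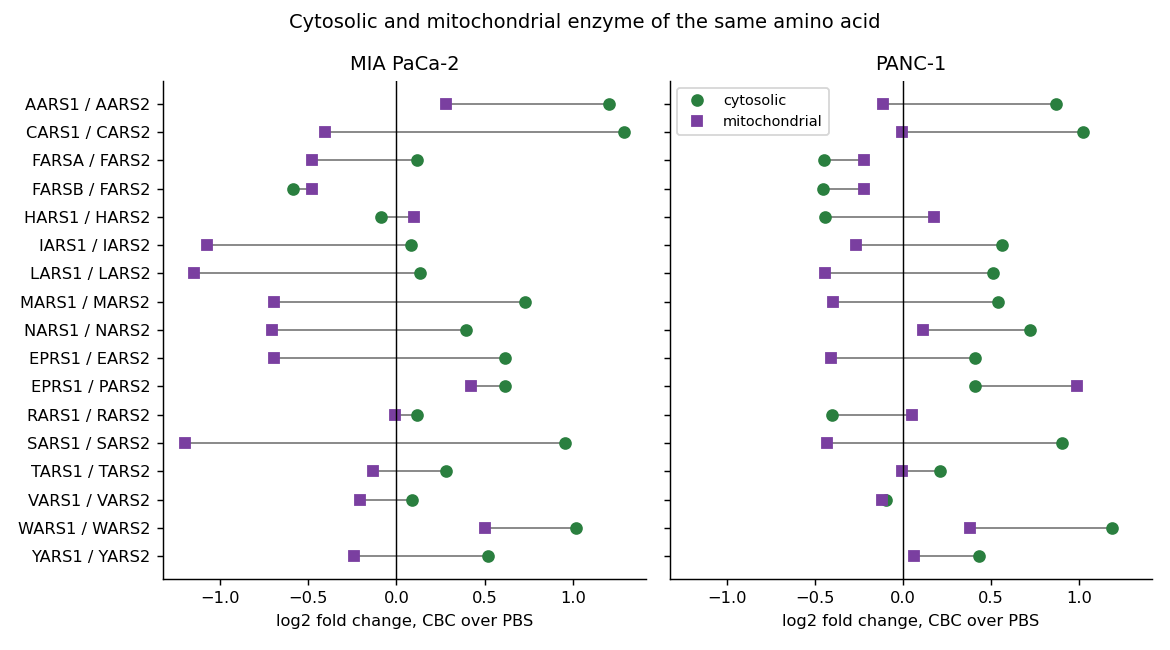
Log2 fold change of CBC over PBS (horizontal axis) of the cytosolic (green circles) and the mitochondrial (purple squares) enzyme of the same amino acid in MIA PaCa-2 (left) and PANC-1 (right) cells, 17 pairs, 1 library per condition and no error shown. The cytosolic circle lies to the right in 15 pairs in MIA PaCa-2 cells and in 12 pairs in PANC-1 cells.

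The called genes came from both structural classes of synthetases and from outside the large complex that several of them form. In human cells this multi-synthetase complex is held together by the scaffold proteins AIMP1, AIMP2 and EEF1E1. Of the 7 members measured in it (EPRS1, IARS1, KARS1, LARS1, MARS1, QARS1 and RARS1), none was called in edgeR or limma-voom. Over all genes tested edgeR called 2.26% higher, so 0 of 7 is near that share and does not set the complex apart. There were 2 (EPRS1 and MARS1) higher at an unadjusted p under 0.05 in edgeR, beside 10.6% of all genes, and DESeq2 called MARS1 (adjusted p = 0.0217). The median over the 7 was 0.13 in MIA PaCa-2 and 0.41 in PANC-1 cells. All 5 called genes encode enzymes outside this complex. The scaffold genes had log2 fold changes across both lines of −0.02 for AIMP1, 0.10 for AIMP2 and −0.22 for EEF1E1, with adjusted p in edgeR from 0.707 to 0.97, none at an unadjusted p under 0.05 and none called by limma-voom or DESeq2. By structural class, 2 of 18 class I enzymes (CARS1 and WARS1) and 3 of 16 class II enzymes (AARS1, GARS1 and SARS1) were called higher, beside 2.26% of all genes. The class medians across both lines were −0.04 and 0.01.

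Genes that act next to the synthetases were read from lists drawn up from general knowledge. XPOT, which exports tRNA from the nucleus, had a CPM of 248 and 312 in MIA PaCa-2 cells and of 348 and 618 in PANC-1 cells, and its change over both lines was 0.59 ± 0.20 in log2 (SE; adjusted p = 0.138, edgeR). The cytosolic elongation factors EEF1A1, EEF1B2, EEF1D and EEF2 were not called by any of the 3 tools, although EEF2 was higher at an unadjusted p under 0.05. EEF1G had at most 1 count, but 99.7% of its exon bases overlap another gene, so no level is given for it. For the enzymes that edit mischarged or D-aminoacyl tRNA, DTD1 had log2 fold changes of 0.33 and 0.93, DTD2 −0.26 and 0.02, and AARSD1 0.15 and −0.71. None of these was called by the 3 tools, and only DTD1 was higher at an unadjusted p under 0.05 in edgeR.

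On the mitochondrial side, glutaminyl-tRNA is made by an amidotransferase of GATB, GATC and QRSL1, and MTFMT formylates the initiator methionyl-tRNA. Their log2 fold changes across both lines were −0.35, −0.02, −0.06 and −0.16, with adjusted p in edgeR from 0.564 to 0.971. The mitochondrial elongation factors TUFM, TSFM, GFM1 and GFM2 all lay below 0 in MIA PaCa-2 cells, with a median of −0.56, and 3 of the 4 lay below 0 in PANC-1 cells, with a median of −0.13. Neither list had a gene called by edgeR, limma-voom or DESeq2, or a gene at an unadjusted p under 0.05 in edgeR.

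The called synthetases stood beside changes of genes that respond to amino acid and endoplasmic reticulum stress. ASNS, DDIT3, TRIB3, CHAC1 and SESN2 changed more across both lines than any called synthetase. In the same comparison ATF4 changed less than GARS1, and PSAT1 less than all 5 called synthetases. ATF4 mRNA had a CPM of 206 and 614 in MIA PaCa-2 cells and of 243 and 469 in PANC-1 cells, and rose by a log2 fold change of 1.27 ± 0.22 (SE; adjusted p = 0.0229, edgeR). ASNS, the asparagine synthetase that makes the amino acid itself, had 107 and 427 in MIA PaCa-2 cells and 171 and 531 in PANC-1 cells (1.82 ± 0.20 SE; adjusted p = 0.00794, edgeR). Of 7 such marker genes, edgeR called 6 higher but not PSAT1 of serine synthesis (0.80 ± 0.20 SE, adjusted p = 0.0676), and DESeq2 called all 7. DDIT3, TRIB3, CHAC1 and SESN2 had log2 fold changes across both lines of 3.01 to 3.74. Earlier results had shown several of these genes to be higher, so the list is no independent evidence, and a part of this response in the synthetase changes was not tested.

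The members with the CARE letters are described with the rest of the promoter readings. The 7 cytosolic members that held them, in the sequences printed above, were all above 0 in both lines. Their median was 0.73 in MIA PaCa-2 and 0.72 in PANC-1 cells, and their range was 0.08 to 1.56 in the former. The 9 cytosolic members with a window and no match had medians of 0.12 and −0.26 and, in MIA PaCa-2 cells, a range of −0.64 to 1.02. The letters stood in 3 of the 5 called genes (GARS1, CARS1 and AARS1), while WARS1 and SARS1 had none in this window. TARS1, which has the same 8 letters as CARS1, AARS1 and MARS1 and has them closest to the start together with CARS1, had a log2 fold change of 0.25 ± 0.18 (SE; adjusted p = 0.478, edgeR). YARS2, the mitochondrial gene with a match, had −0.08 ± 0.22 (SE; adjusted p = 0.878).

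The other elements were counted in the same windows. The core CCACG of the endoplasmic reticulum stress element stood in 8 of 16 cytosolic and 7 of 14 mitochondrial windows, against 38.1% of all windows. The unfolded protein response element TGACGTGG, whose reverse complement contains CCACG, stood in CARS1 and CARS2, against 0.729% of all. The antioxidant response element core TGACNNNGC stood in 4 cytosolic (GARS1, KARS1, TARS1 and WARS1) and 2 mitochondrial windows (NARS2 and RARS2), against 13.3%. The E-box CACGTG, which MYC family factors bind and which can overlap CCACG, stood in IARS1 and in CARS2, EARS2 and MARS2, against 7.26%. The CCAAT box stood in 7 cytosolic and 9 mitochondrial windows, against 34.6%. All were read on both strands, and a match or its absence describes only these letters in this window.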

How the data were processed

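Poly(A) RNA from the PBS- and CBC-treated cells of both lines was sequenced in 4 libraries. The authors trimmed reads (cutadapt 2.7), aligned them to GRCh38 (STAR) and counted them with HTSeq on Ensembl release 89. The aligner's version and the strand setting of the counting are not given in the sources used here. The authors deposited raw counts per gene and, as a normalized signal per library, CPM on TMM-scaled library sizes. The deposited signal was matched by TMM-scaled counts within a relative difference of 6.84e-09.

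The members and gene lists were chosen with earlier results of these data known. Symbols (57392 of 58233 identifiers matched), positions and exon lengths came from GENCODE release 44 on GRCh38, and promoter sequences from RefSeq on GRCh38.p14. Within a line, fold changes were computed on the log2 scale with edgeR 4.0.16 and R 4.3.3 (prior count 2, TMM over 4 libraries, at least 1 CPM in 1 library of the line), with exact Clopper-Pearson 95% intervals (scipy 1.17.1) that cover counting error only. A count of 0 allows 3 counts, or 0.11 to 0.135 CPM. Across both lines, edgeR's quasi-likelihood test was run on 16381 genes kept by its filter, with the cell line as a block and Benjamini-Hochberg adjustment over all genes at 0.05. It called 771 genes. The cell line pairs the libraries, whose paired deviations had a correlation of 0.923. No label names separate cultures, so p-values measure only the spread between these libraries. The coefficient of biological variation was 23%. In simulated data for this comparison, 92.5% of 200 genes changed 4-fold were recovered among 16106 tested, and 1.6% of calls were false. The simulation gave every gene the same coefficient of variation. All members changed less than 4-fold, so these rates do not tell how often changes of their size would be called. Alternatives used DESeq2 1.42.0, limma-voom (limma 3.58.1), other scalings, filters and prior counts.

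Every member is named. Full values are given for members called across both lines or past a log2 fold change of 1 in a line, and values for those nearest the thresholds.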

Additional observations from a re-analysis of the deposited data

Results flagged for a closer look

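Among the 35 members, 4 cytosolic synthetases had log2 fold changes of opposite sign in the lines, above 0 in MIA PaCa-2 and below 0 in PANC-1 cells, with counting intervals that did not hold 0 in either. The difference, MIA PaCa-2 minus PANC-1, was 0.562 for FARSA (0.12 and −0.45), 0.522 for RARS1 (0.12 and −0.41), 0.387 for KARS1 (0.13 and −0.26) and 0.187 for VARS1 (0.09 and −0.10). With 1 library per line and treatment, the differences were not tested. None of the 4 changed sign within a line under any alternative tried, but VARS1 in PANC-1 cells came to −0.03 with library totals. FARSA and FARSB encode the subunits of 1 enzyme, and FARSB was below 0 in both lines (−0.59 and −0.45).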

How the results depend on the processing

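The 5 cytosolic calls across both lines were kept under each alternative that had the cell line as a block. Their adjusted p ranged from 1.71e-12 to 0.0178 for GARS1, 4.32e-06 to 0.0296 for CARS1, 6.46e-07 to 0.0275 for WARS1, 1.02e-05 to 0.0352 for AARS1 and 8.47e-05 to 0.0453 for SARS1. Without the block edgeR called 0 of them and 0 of all genes, and 2 members and 354 genes had an unadjusted p under 0.05. MARS1 was also called by DESeq2 (adjusted p = 0.0217) and without the filter on low counts (0.0277), and its range with the block was 0.0217 to 0.115. Without the filter, 1 mitochondrial member (IARS2, −0.67) was called lower. Library totals in place of TMM moved the median of all genes from −0.01 to 0.05 in MIA PaCa-2 and from 0.02 to 0.09 in PANC-1 cells. They moved the cytosolic medians to 0.344 and 0.501, turned the PANC-1 mitochondrial median to 0.009, and put 1 mitochondrial member, PARS2 (1.05), past 1 in PANC-1 cells and SARS1 (1.02) past 1 in MIA PaCa-2 cells. KARS1 and VARS1, near 0 across both lines, changed sign without a call. TMM over all genes before the filter, chosen after the data were seen, kept the 5 calls. Over all genes, 771 calls across both lines became 1296 with DESeq2 and 2063 of 28834 without the filter. Past 1 in MIA PaCa-2 cells, the 1608 higher and 1256 lower genes became 3249 and 2567 without the filter and 1039 and 952 with at least 1 CPM in both libraries. In PANC-1 cells the 1087 higher and 991 lower genes became 2537 and 2310 without the filter, and 680 and 710 with a pseudocount of 1 on the deposited CPM. Leaving out a line leaves the fold change of the other with no test. Counts ran from 58 to 29718 per member and library, so counting error was small for the members with many reads only. The intervals of SARS2 in MIA PaCa-2 (−1.70 to −0.76) and PARS2 in PANC-1 cells (0.68 to 1.32) held the threshold. So did those of WARS1 (0.985 to 1.051), SARS1 (0.896 to 1.014) and LARS2 (−1.301 to −0.999) in MIA PaCa-2 cells. That of CARS1 in PANC-1 cells (0.976 to 1.066) held it too. In PANC-1 cells the intervals of 7 of 16 mitochondrial members held 0. The single library per condition limits all members.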
